A study of Mus musculus with 3 samples.

Results

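The nucleotide synthesis genes described here are 10 mouse genes: Ppat, Gart, Paics, Atic and Impdh2 of purine synthesis, Cad, Umps and Ctps of pyrimidine synthesis, and Tyms and Rrm2, which make the precursors of DNA. They were chosen by name, with earlier results of these data known. Each transcript model was taken as an isoform of the gene on its strand of GRCm38 with which it shared the largest number of splice sites. Models that shared none went by the largest exonic overlap, as a single-exon Cad isoform did. This gave 10 isoforms of 10527 in the naive library, 32 of 12602 in the undivided library and 39 of 11109 in the 2-division library.

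The PacBio libraries came from wild-type (WT) CD4+ T cells, isolated with a naive cell kit from spleens and lymph nodes of male C57BL/6N mice 6 to 10 weeks old. The number of mice behind each library is not given in the sources used here. The naive library was made from cells lysed on the day of isolation. The undivided and 2-division libraries came from the same type of cells after 48 h on plate-bound anti-CD3 with anti-CD28 antibodies, sorted by dilution of the dye CellTrace Violet into the peak of 0 divisions and the peak of 2 divisions. With 1 library per condition there was no replicate, so differences below are between libraries and carry no p-value. The models have no read counts, so only their presence can be read, not their level. The paper describes the long-read sequencing as low in coverage and short of the whole transcriptome. An isoform that is not listed may therefore still have been present in the cells. The paper also describes the undivided cells as mixed, since some of them had not induced an early activation marker. It names this mixture as a limit on separating activation from entry into the cell cycle. Both 48 h libraries are called activated below, and the part of unactivated cells in the undivided library was not tested.

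Cells build purines step by step on a ribose phosphate, and pyrimidines as a free ring that is joined to ribose phosphate later. Resting lymphocytes meet their small need largely by salvage of bases and nucleosides. Stimulated lymphocytes turn to synthesis from amino acids and one-carbon units, and inhibitors of IMP dehydrogenase and of pyrimidine synthesis are used to restrain T cells in patients.

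Of 10 CD4 T cell markers, 10 were seen in the naive library and 9 in each activated library, where Cd3g was missing. Of 10 B cell markers, 5 were seen in naive, 2 in undivided and 2 in 2-division cells, and Ighm had 12, 5 and 4 isoforms in that order. The 10 B cell markers together had 20, 6 and 5 isoforms in that order, while Cd79a, Pax5 and Ebf1 among them had none in any library. Myeloid genes were seen at 1, 0 and 0 of 8, CD8 T and NK cell genes at 2, 2 and 1 of 6, and erythroid and platelet genes at 2, 0 and 0 of 8. The part of such cells in the results below was not tested. The names of the deposited tables carry one sequencing cell number for the naive library and another for both activated libraries, and if these are the cells they were run on, activation and sequencing cell cannot be told apart.

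Most of the 10 genes were listed with more isoforms after activation. Of them, 7 had isoforms in the naive library, 10 in the undivided library and 10 in the 2-division library, while of all 22028 protein-coding genes 21.0% were seen in the naive, 24.8% in the undivided and 23.0% in the 2-division library. Cad, Ctps and Tyms were the genes with no isoform listed in the naive library. Of all protein-coding genes seen in undivided or naive cells, 26.6% were seen in undivided and not in naive cells, and for 2 divisions against naive this share was 24.1%. The 3 of 10 genes gained here are thus near the background. No member was lost on activation, where 13.2% of genes were seen in naive but not in undivided cells and 16.9% in naive but not in 2-division cells.

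The number of isoforms per gene was higher in undivided than in naive cells for 9 of 10 members, against 49.3% of all genes seen in either library, and higher after 2 divisions than in naive cells for 9 of 10, against 44.1%. Atic was level in undivided and naive cells, and Umps was level after 2 divisions and in naive cells. Some gains rested on isoforms that began past the start codon, or that ended before the stop codon at a genomic stretch of mostly A. Without such isoforms, Gart in undivided cells was level with naive cells. So were Ppat, Atic and Impdh2 in 2-division cells. The shares of all genes were not recomputed in this way. No member had fewer, where 26.1% and 31.5% of all genes did. Both comparisons use the same naive library, in which 14.1% of isoforms had a single exon, where the undivided library had 7.03% and the 2-division library 7.71%. Among the members 1 isoform had a single exon, and with isoforms of several exons alone they had 10, 32 and 38. Between 2 divisions and undivided cells, 5 members had more isoforms and 2 had fewer, against 26.4% and 40.8% of all genes. The median difference was 2 isoforms per member for undivided against naive cells and 2.5 for 2 divisions against naive cells, and 0 over all genes in both. As a share of the library, the members made up 0.0950% of naive isoforms (95% Clopper-Pearson interval 0.0456% to 0.175%), 0.254% of undivided isoforms (0.174% to 0.358%) and 0.351% of 2-division isoforms (0.250% to 0.480%). These intervals describe counting error only, and several isoforms of a gene do not count independently.

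**Figure D1:**
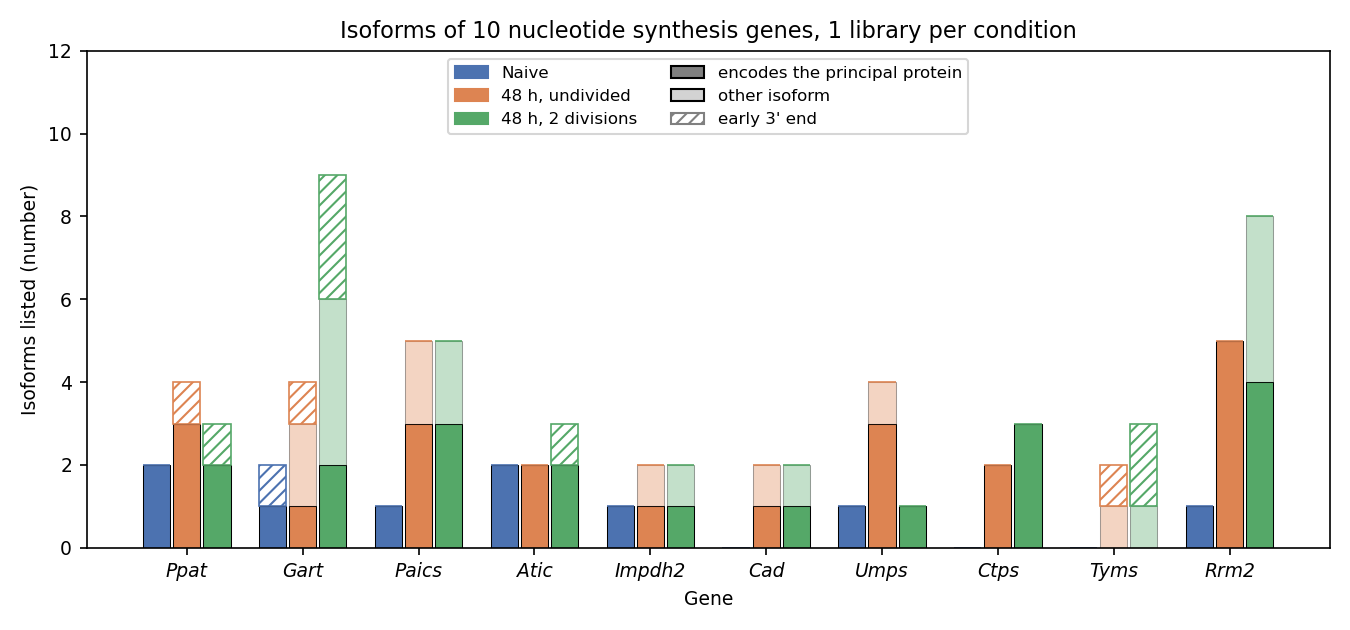
Number of isoforms (y axis) of each gene (x axis) in the naive, 48 h undivided and 48 h 2-division libraries, 1 library each and no error bars. Dark bars are isoforms whose reading frame gives the principal protein and its stop codon, pale bars other isoforms and hatched bars isoforms with an early 3′ end. Gart stands at 2, 4 and 9 and Rrm2 at 1, 5 and 8.

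The annotated main protein was open in most of these genes. An isoform was counted as covering the coding region when each coding base of the principal transcript, the one APPRIS marks in GENCODE M21, lay in its exons. This held for 7 of the 7 members seen in naive cells and for 10 of 10 in each activated library, where 82.3%, 84.6% and 84.6% of all protein-coding genes seen had such an isoform. Read from the annotated start codon, at least 1 isoform gave the principal frame with its stop codon for 7 members in the naive, 9 in the undivided and 9 in the 2-division library. The member without one in the activated libraries was Tyms. Its isoform in undivided cells read all 307 codons but ended on the first base of the stop codon, and that in 2-division cells closed after 243. Frames were read without the poly(A) tail, which the models do not hold. Below, 3′ UTR lengths run from the annotated stop codon of the principal transcript, also where the frame of an isoform closed elsewhere.

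Ppat (ENSMUSG00000029246.14, chr5:76913249-76951578, minus strand, 11 exons) encodes the amidophosphoribosyltransferase that commits ribose phosphate to purine synthesis. It had 2 isoforms in naive, 4 in undivided and 3 in 2-division cells. The 2 naive isoforms had 3′ UTRs of 163 and 175 nt. Undivided cells had 3′ UTRs of 162, 1759 and 1876 nt, and 2-division cells of 162 and 1877 nt. The long 3′ UTR of Ppat was thus listed in both activated libraries and not in naive cells. Each library held 1 isoform with a long 5′ UTR, of 520 nt in naive, 489 nt in undivided and 497 nt in 2-division cells, and it ended at the short 3′ UTR each time. The other isoforms had 5′ UTRs of 103 to 143 nt, the second naive isoform with its 175 nt 3′ UTR among them.

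Gart (ENSMUSG00000022962.15, chr16:91621186-91646952, minus strand, 22 exons) encodes a trifunctional enzyme, and its pre-mRNA is known to give a second, short mRNA for the glycinamide ribonucleotide synthetase part alone. The long form from the first exon to the end of exon 22 was listed as 1 isoform in naive, 1 in undivided and 2 in 2-division cells, with a frame of 1010 codons. The short form was listed as 1 isoform in naive, 1 in undivided and 2 in 2-division cells. So both forms stood side by side in every library. The short form has 11 exons, and its last exon runs from exon 11, a 232 nt exon, 465 to 469 nt into the 2803 nt intron behind it. Its frame has 433 codons, 42.9% of the full frame, as in the annotated transcript Gart-202, and the stop codon ends 4 nt into the intron.

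Further Gart isoforms reached the same last 3′ end but began inside the gene, past the start codon. There were 0 in naive, 2 in undivided and 4 in 2-division cells. One further isoform of 2 exons in 2-division cells kept 2 introns, ended at chr16:91641156 and had a frame of 61 codons. In 2-division cells 1 long and 1 short isoform shared a first exon that was 157 nt longer than the annotated main one, with 5′ UTRs of 253 and 270 nt, so this alternative first exon occurred with either 3′ end.

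**Figure D2:**
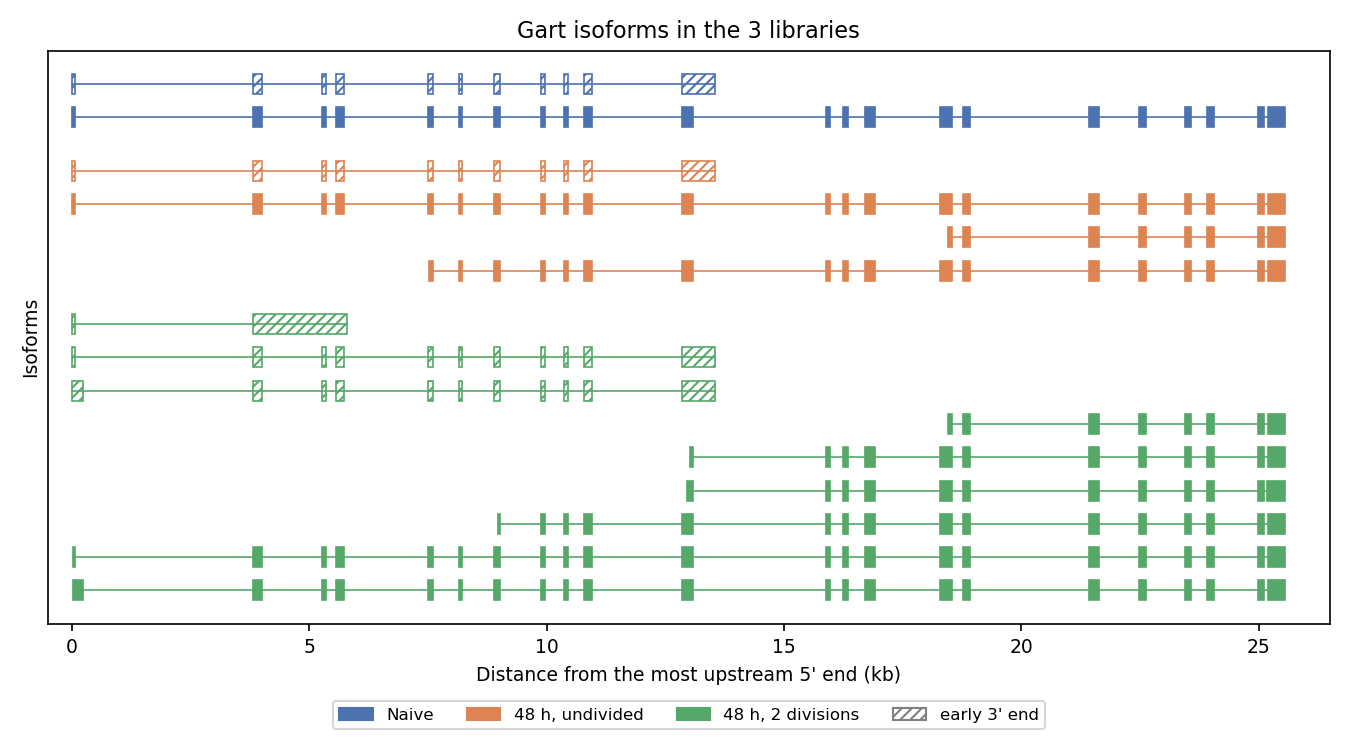
Exons (boxes) and introns (lines) of the Gart isoforms in the 3 libraries against distance from the most upstream 5′ end (x axis, kb), 1 row per isoform (y axis). Hatched isoforms end before the stop codon; the short form with 11 exons appears in 1 naive, 1 undivided and 2 2-division isoforms.

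Paics (ENSMUSG00000029247.17, chr5:76951307-76967509, plus strand, 9 exons) encodes the bifunctional enzyme of the carboxylase and SAICAR synthetase steps of purine synthesis. It had 1 isoform in naive cells, with a 3′ UTR of 686 nt, and 5 in each activated library. In both activated libraries the 3′ ends fell at 3 sites, with 3′ UTRs of 506 to 512 nt, 581 to 597 nt and 686 to 693 nt, and the naive end was the last of them. Paics lies head to head with Ppat. The 5′ ends of Ppat lay between 76951187 and 76951604 over the libraries and those of Paics isoforms that hold the start codon between 76951320 and 76951778. The largest overlap of the 2 genes' isoforms was 254 nt in undivided cells, from a Paics isoform with a 5′ UTR of 500 nt. It was -90 nt in naive and -59 nt in 2-division cells, where a negative value is a gap.

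Atic (ENSMUSG00000026192.13, chr1:71557150-71579631, plus strand, 16 exons) encodes the enzyme of the closing steps to IMP. Its pair of tandem 3′ ends was the one listed in all libraries. The 3′ UTRs were 733 and 958 nt in the naive, 732 and 964 nt in the undivided and 732 and 957 nt in the 2-division library.

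Impdh2 (ENSMUSG00000062867.13, chr9:108560286-108565584, plus strand, 14 exons) encodes the IMP dehydrogenase that leads to guanine nucleotides and is induced in proliferating lymphocytes. Each of its isoforms, 1 in naive, 2 in undivided and 2 in 2-division cells, ended at 108565564 with a 3′ UTR of 45 nt. One isoform in undivided cells held an added 72 nt exon, which lengthens the frame to 538 codons from 514 without breaking it. Both flanking introns are annotated in the transcript Impdh2-207.

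Cad (ENSMUSG00000013629.16, chr5:31054780-31078479, plus strand, 44 exons) encodes the large multifunctional protein of the opening steps of pyrimidine synthesis. No isoform was listed in naive cells. A complete isoform of 44 exons was listed in both activated libraries, 7085 nt long in undivided cells and 7139 nt long in 2-division cells, with a frame of 2225 codons. These were among the longest models, since 16 of 12602 isoforms in undivided cells and 8 of 11109 in 2-division cells were longer. Isoforms of at least 7000 nt of any gene numbered 38 in the naive, 18 in the undivided and 15 in the 2-division library. The 3′ UTR of the complete isoform was 283 nt in undivided and 284 nt in 2-division cells. Each activated library had a second Cad isoform that began inside the gene, of 12 exons in undivided cells and a single 83 nt exon in 2-division cells.

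Umps (ENSMUSG00000022814.6, chr16:33954782-33967038, minus strand, 6 exons) encodes the bifunctional enzyme that makes UMP. The naive isoform had a 3′ UTR of 1969 nt. Undivided cells had 4 isoforms with 3′ UTRs of 166, 167, 204 and 1969 nt, and 2-division cells had 1 isoform with a 3′ UTR of 166 nt. The long end was thus listed in naive and undivided cells and the short end in both activated libraries, so the undivided library held both. Whether the long end there came from cells that were not activated was not tested. The isoform with 167 nt skipped a 154 nt exon, as the annotated transcript Umps-202 of the nonsense-mediated decay class does, and its frame closed after 57 of 481 codons.

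Ctps (ENSMUSG00000028633.7, chr4:120539868-120570276, minus strand, 19 exons) encodes CTP synthase, on which lymphocyte expansion depends in people. No isoform was listed in naive cells. The 3′ UTRs were 504 and 790 nt in undivided cells and 188, 514 and 790 nt in 2-division cells. All 5 isoforms had the annotated chain of introns and a frame of 591 codons, so they differed in their 3′ and 5′ ends alone.

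Tyms (ENSMUSG00000025747.12, chr5:30058202-30073617, minus strand, 7 exons) encodes thymidylate synthase, and its mouse mRNA is known for a poly(A) tail added at the stop codon. It was not listed in naive cells. Undivided cells had 1 isoform of 7 exons, whose last base, 30060998, was the first base of the TAG stop codon. In 2-division cells the isoform of 7 exons ended at 30060983, 13 nt past the annotated stop codon. A poly(A) tail had been required of the reads and cut off, so the models do not show it. Added directly after the T of the isoform in undivided cells, a tail would complete a TAA stop codon after all 307 codons. This was not tested. The isoform of 2-division cells also used another splice site, with 10 nt added to an internal exon, and its frame closed after 243 of 307 codons. The nearest annotated GENCODE end, that of the retained-intron transcript Tyms-206, lay 66 nt from the end in undivided and 81 nt from that in 2-division cells.

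Rrm2 (ENSMUSG00000020649.11, chr12:24708241-24714146, plus strand, 10 exons) encodes the small subunit of ribonucleotide reductase, which is made in S phase. It had 1 isoform in the naive, 5 in the undivided and 8 in the 2-division library. The naive 3′ UTR was 860 nt long. The 3′ UTRs in undivided cells were 58, 135, 853, 858 and 899 nt. In 2-division cells they were 58 and 114 nt in 2 isoforms and 849 to 899 nt in the other 6. Short and long 3′ UTRs of Rrm2 thus occurred together in both activated libraries, and the naive one belonged to the long group. In 2-division cells 1 isoform kept the last intron of 105 nt, with a frame of 371 in place of 390 codons, and 1 used a donor 15 nt further into the first intron, with a frame of 395 codons.

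**Figure D3:**
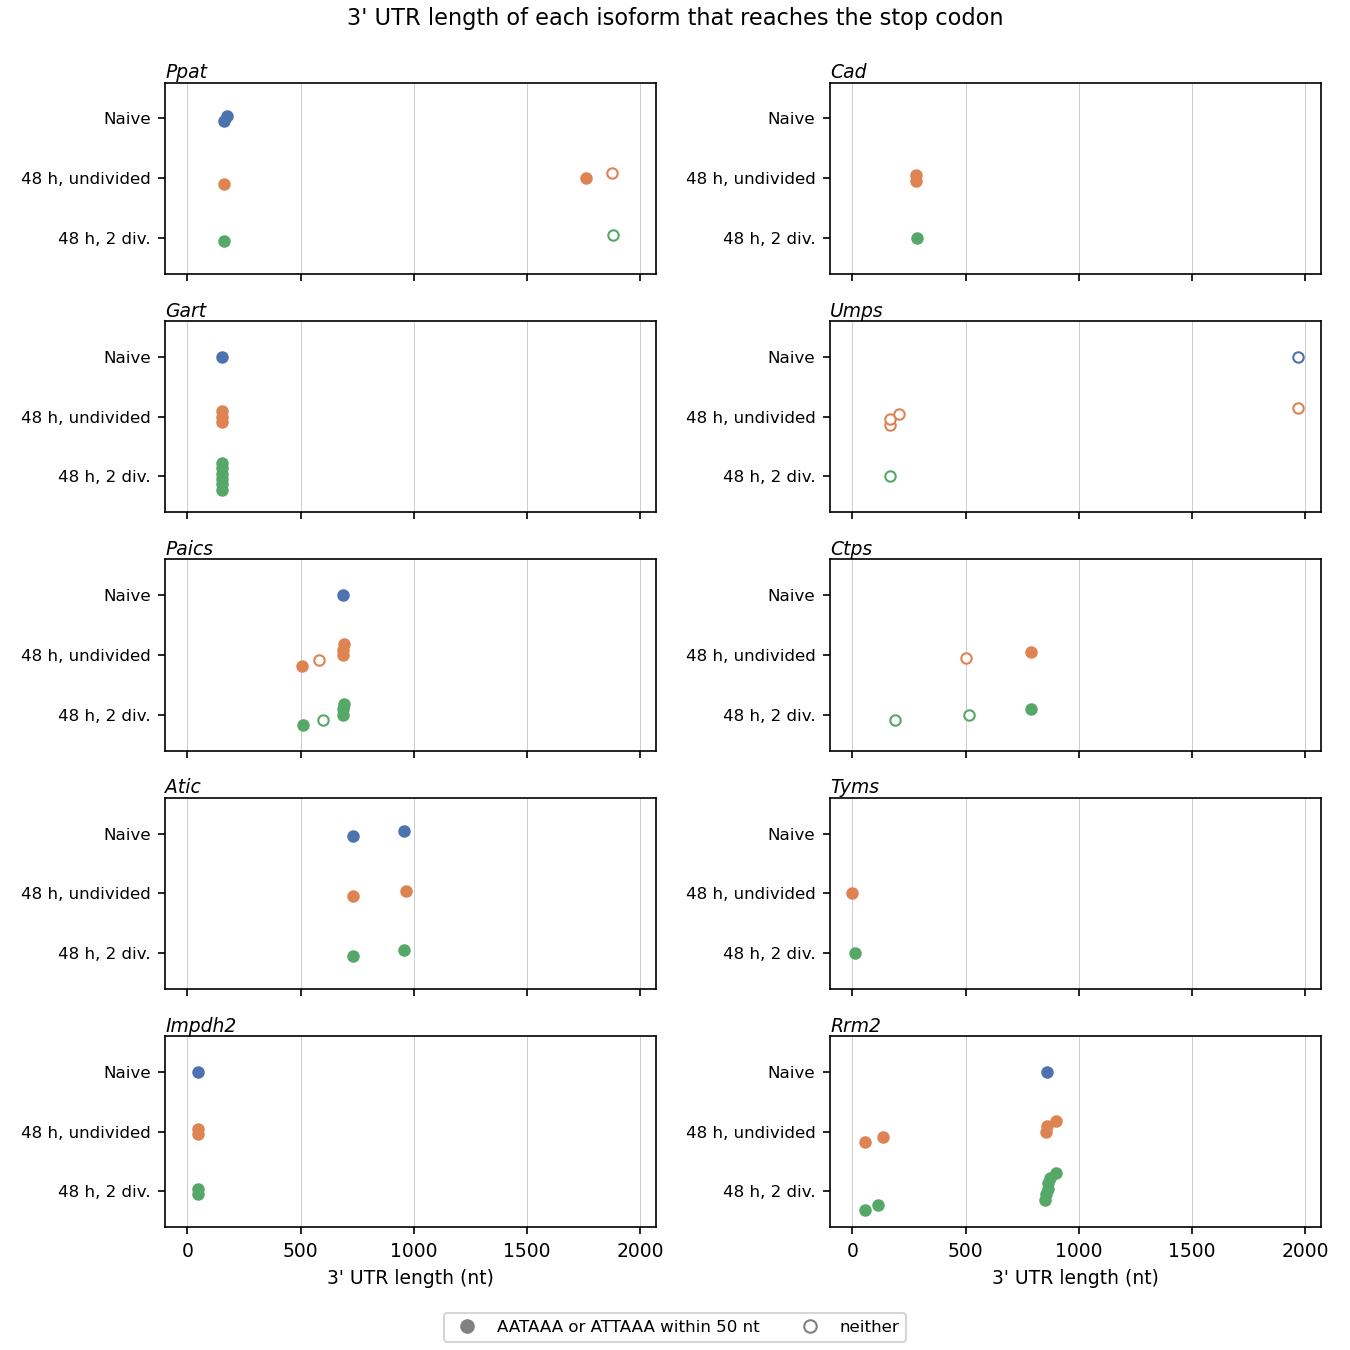
3′ UTR length from the annotated stop codon (x axis, nt) of each isoform that holds that codon, by library (rows) and gene (panels), 1 library per condition and no error bars. The Tyms isoform that ends on the first base of the stop codon is drawn at 0; filled points have AATAAA or ATTAAA in the 50 nt before the end. Umps stands at 1969 nt in naive cells and at 166 nt in 2-division cells, and Ppat reaches 1876 and 1877 nt in activated cells alone.

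An early 3′ end is one that lies before the stop codon of the principal transcript. Early ends were found in 1 of 10 member isoforms of the naive library, 3 of 32 of the undivided and 7 of 39 in 2-division cells, and in 15.0%, 10.6% and 10.9% of all isoforms of protein-coding genes. They fell on 5 sites in Ppat, Gart, Atic and Tyms. The genome just past an end is given because oligo(dT) can prime on a run of A inside a transcript, which was not tested here. Ends whose next 20 nt hold 12 or more A are called A-rich here. The 20 nt after each early end are printed with each A in capitals, since this is where the early sites differ.
Ppat, in the last coding exon (chr5:76915335-76915354, minus strand): AAcAAgAAAtAAAAtttAAg
Gart, end of the isoform of 2 exons (chr16:91641136-91641155, minus strand): AAAAAAAAAAAAAAAAAAAA
Gart, short form (chr16:91633386-91633405, minus strand): gAgtgttttgAttttttttt
Atic, in exon 11 (chr1:71570897-71570916, plus strand): AAAAAgAAAAAtggAAActA
Tyms, intronic end (chr5:30069897-30069916, minus strand): AAAAgAAAAAAgAAAAAAAA
The numbers of A were 13 for Ppat, 20 for the isoform of 2 exons of Gart, 2 for its short form, 14 for Atic and 18 for Tyms. Of the 5 early sites, 4 were thus A-rich, and the short form of Gart was the one that was not. It was also the one in the naive library. Over all protein-coding genes 87.0% of early isoforms of the naive, 75.2% of the undivided and 75.5% of the 2-division library were A-rich, against 14.9%, 13.6% and 13.9% of the isoforms that were not early. In the members, 0 of 1, 2 of 3 and 5 of 7 early isoforms were A-rich. Over early and late ends together, 1 of 10, 5 of 32 and 7 of 39 member isoforms were A-rich, against 25.7%, 20.1% and 20.6% of all isoforms of protein-coding genes. Without such ends 1, 1 and 2 early isoforms were left in naive, undivided and 2-division cells, all of them the short Gart form.

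The early isoforms of Ppat, in undivided and 2-division cells, broke off after 469 of 517 codons with no stop codon, and that of Atic, in 2-division cells, after 355 of 592. The early isoforms of Tyms, 1 in undivided and 2 in 2-division cells, ended in an intron at 30069917 and closed their frames after 111 codons in 2 of them and 115 in the third. The early Tyms site lies 2026 nt from the nearest annotated transcript end, and both early Gart sites lie within 5 nt of one, that of the A-rich site belonging to the retained-intron transcript Gart-208.

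The 30 nt up to the main 3′ ends are given next, with the poly(A) signal AATAAA, its variant ATTAAA or, where neither was found, another one-base variant in capitals. They are shown for main ends of Gart, Ppat, Umps, Ctps, Atic and Rrm2, which have more than 1 end site, so that the ends of a gene can be set side by side. Other ends of these genes, among them the short end of Ctps, and the ends of Paics are not shown.
Gart, short form (chr16:91633406-91633435, minus strand): cataaataAATAAActgttggttgccacgt
Gart, long form (chr16:91621404-91621433, minus strand): ctgccattttttaAATAAAtaggttcattg
Ppat, short 3′ UTR (chr5:76915047-76915076, minus strand): aggttattATTAAAttgctatattgaacct
Ppat, longest 3′ UTR (chr5:76913332-76913361, minus strand): cccaaactaaTATAAAcctactttcttttt
Umps, short 3′ UTR (chr16:33956597-33956626, minus strand): tactgtaatgagcagcccttttgaaagctt
Umps, long 3′ UTR (chr16:33954794-33954823, minus strand): gtcttgaattaTATAAAggctaagcaagcc
Ctps, middle 3′ UTR (chr4:120540145-120540174, minus strand): tgtctgtataaagtatcaTATAAAaacccc
Ctps, long 3′ UTR (chr4:120539869-120539898, minus strand): catatctaacttAATAAAtaatgcagaacc
Atic, short 3′ UTR (chr1:71579374-71579403, plus strand): tccaatcctctaAATAAAttttaaaacttt
Atic, long 3′ UTR (chr1:71579599-71579628, plus strand): cagaacattttatAATAAAcagtcatcttt
Rrm2, shortest 3′ UTR (chr12:24713261-24713290, plus strand): tttgtccccttgccATTAAAagaaaccagc
Rrm2, main long 3′ UTR (chr12:24714056-24714085, plus strand): tgttacttaaaattAATAAActcttgaatt
For Tyms the windows are given with the stop codon, or the part of it in the model, in capitals, since the 2 ends lie on and just past that codon. The signal is in capitals too where the window holds it.
Tyms, undivided cells (chr5:30060998-30061027, minus strand): atccaacgATTAAAatggaaatggctgttT
Tyms, 2-division cells (chr5:30060983-30061012, minus strand): tggaaatggctgttTAGagtgctttcagtg
The signal of the Tyms end in undivided cells thus stands within the coding sequence. It begins at base 22 from the end, with the last base counted as 1. The same ATTAAA begins at base 37 from the end in 2-division cells, outside the 30 nt window printed. Both ends of Atic have AATAAA, and none of the 3 Umps sites has AATAAA or ATTAAA within 50 nt. The long Umps end has the variant TATAAA, while the short Umps ends have none of the 12 hexamers searched. The short Ctps end has none of them either. Over the members, AATAAA or ATTAAA stood within 50 nt of the end in 9 of 10 isoforms in the naive, 23 of 32 in the undivided and 29 of 39 in the 2-division library, and in 61.6%, 67.3% and 67.3% of all isoforms. A match is a run of letters and was not tested for use.

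The members' 3′ ends fell on 27 sites after ends within 24 nt of the next were merged. Of these, 8 were listed in all 3 libraries, 13 in both activated libraries and not in naive cells, 1 in naive and undivided cells, 2 in undivided cells alone and 3 in 2-division cells alone. No site was listed in naive cells alone. Such shares were not computed over all genes, so the counts cannot be called particular to the members. The naive library also held fewer member isoforms, 10 against 32 in the undivided and 39 in the 2-division library. The site shared by naive and undivided cells was the long end of Umps. At 7 of the 27 sites, the end that stood for the site had none of the 12 hexamers searched within 50 nt. Within 24 nt of an annotated transcript end lay 13 of the 27 sites in GENCODE M21 and 8 in RefSeq. The short ends of Umps, 166 and 204 nt past the stop codon, lay 1803 and 1765 nt from the nearest GENCODE end, and the middle Ctps end 277 nt. The short Ctps end, listed in 2-division cells alone, lay 603 nt from it. Of the late sites, 2 were A-rich. That of Impdh2 had 13 A and an AATAAA that begins at base 14 from the end, with the last base counted as 1. The middle site of Paics had 12 A and no such signal at its end in undivided cells, and 10 A at its end in 2-division cells.

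Tandem 3′ ends were counted within terminal exon families, that is, isoforms of a gene with a common last splice acceptor. Several ends were found in 1 of 8 member families in the naive, 6 of 12 in the undivided and 5 of 17 in the 2-division library, where 15.8%, 21.8% and 19.8% of all families had several. The naive family was that of Atic. In undivided cells Ppat, Paics, Umps, Ctps and Rrm2 came with it, and in 2-division cells the same genes without Umps. A family needs at least 2 isoforms to show several ends, and such families were 2 in naive, 9 in undivided and 8 in 2-division cells. Among all families with at least 2 isoforms, several ends were found in 48.3% of the naive (95% interval 45.9% to 50.6%), 52.7% of the undivided (50.7% to 54.6%) and 51.3% of the 2-division ones (49.2% to 53.4%). The members stood at 1 of 2, 6 of 9 and 5 of 8, near those shares.

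Mean terminal exon lengths were compared for families found in both libraries, and a family counted as shorter or longer past a difference of 100 nt. Between undivided and naive cells 2 of 8 member families were shorter and 1 was longer, where 13.0% and 5.73% of all 3930 families were. The Umps exon averaged 800 nt in undivided cells and 2142 nt in naive cells, a difference of -1342 nt. That of Rrm2 averaged 714 nt in undivided cells and 1013 nt in naive cells, a difference of -299 nt. Ppat went the other way, with 1110 nt in undivided cells and 366 nt in naive cells, a difference of 744 nt, with its early isoform of 51 nt counted in. The other 5 families, of Gart (2), Paics, Atic and Impdh2, differed by -55.6 to 4 nt.

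Between 2-division and naive cells the same families were called, 2 of 8 shorter and 1 longer, where 13.6% and 4.80% of all families were. Umps averaged 339 nt in 2-division cells and 2142 nt in naive cells, a difference of -1803 nt. Rrm2 averaged 797 nt in 2-division cells and 1013 nt in naive cells, a difference of -216 nt. Ppat averaged 828 nt in 2-division cells and 366 nt in naive cells, a difference of 462 nt. These comparisons share the naive library and its single isoform of Umps and of Rrm2. Between 2-division and undivided cells 3 of 12 families were shorter and none longer, where 8.39% and 6.94% of all families were. The differences were -460 nt for Umps, -282 nt for Ppat and -150 nt for Ctps. With the longest terminal exon in place of the mean, Rrm2, Ppat and Ctps were no longer shorter in any comparison, and Umps was shorter in 2-division cells than in either other library but not in undivided than in naive cells, while Ppat stayed longer in both activated libraries than in naive cells.

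The stretch between the first and the last end of a terminal exon, over the 3 libraries, was 2023 nt in Ppat, 1803 nt in Umps, 841 nt in Rrm2, 602 nt in Ctps, 232 nt in Atic and 187 nt in Paics. In Ppat it begins at the early end inside the coding region. The AU-rich pentamer ATTTA, searched on the transcribed strand with overlaps allowed, occurred 5 times in Ppat, 2 times in Umps and 2 times in Rrm2, and not in the other stretches. This is 2.47, 1.11 and 2.38 per kb, where the median over 1704 stretches of at least 100 nt was 1.38 per kb and 64.6% held at least 1. All 6 stretches lay between the quartiles, 0 and 3.03 per kb.

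Most isoforms followed annotated splicing. The whole chain of introns was annotated in 10 of 10 member isoforms in the naive, 25 of 32 in the undivided and 20 of 39 in the 2-division library, and many of the rest began inside the gene, namely 0, 4 and 9. An intron missing from GENCODE M21 was found in 0, 1 and 3 isoforms. The one in undivided cells was in Paics, where an acceptor 3 nt further on removes 1 codon and leaves 424 of 425. In 2-division cells a Paics isoform held an added 117 nt exon in its first intron, with a frame that closed after 41 codons, and the other unannotated introns were those of the 395-codon Rrm2 isoform and of an early Tyms isoform. Each of these introns began with GT and ended with AG. Shares of annotated chains and of unannotated introns were not computed over all isoforms. The counts thus cannot be called particular to the members.

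Of 36 other genes of nucleotide and folate metabolism, 26 were seen in the naive, 33 in the undivided and 30 in the 2-division library. Of the genes seen in either library, 8 of 34 were seen in undivided and not in naive cells, near the 26.6% of all genes, and 7 of 33 in 2-division and not in naive cells, against 24.1%. These included Tk1, the thymidine kinase of S phase, with 0, 1 and 3 isoforms in naive, undivided and 2-division cells. They also included Dut, which removes dUTP, with 0, 2 and 1, the guanylate kinase gene Guk1 with 0, 2 and 1, and the salvage genes Aprt with 0, 3 and 2 and Pnp with 0, 1 and 1. Pnp has a near copy beside it, so its assignment is uncertain. Prpsap1 and Dctd were seen in undivided cells alone with 1 isoform each, and Pfas, of purine synthesis, in 2-division cells alone with 1.

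Of the same genes, 1 of 34 was seen in naive and not in undivided cells and 3 of 33 in naive and not in 2-division cells, against 13.2% and 16.9% of all genes. Between 2-division and undivided cells 1 of 34 was gained and 4 were lost, against 11.2% and 17.9% of all genes. Rrm2b, the p53-induced small subunit of ribonucleotide reductase, was listed with 2 naive isoforms and with none in either activated library. Dtymk and Uck2 had 1 isoform each in naive and undivided cells and none in 2-division cells. Rrm1, the large subunit, had 1, 3 and 5 isoforms, and Impdh1, the IMP dehydrogenase of resting cells, 2, 2 and 1. The mitochondrial one-carbon enzyme genes Shmt2 and Mthfd2, which feed purine and thymidylate synthesis, had 2, 8 and 10 and 1, 4 and 7. Mthfd1l, also mitochondrial, had 1, 1 and 2, and the cytosolic Shmt1 had 1, 2 and 2. Isoforms were more numerous for 18 of 34 of these genes in undivided than in naive cells and for 19 of 33 in 2-division than in naive cells, against 49.3% and 44.1% of all genes. They were fewer for 4 of 34 and 7 of 33, against 26.1% and 31.5%. Between 2-division and undivided cells 14 of 34 had more and 13 fewer, against 26.4% and 40.8%.

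**Figure D4:**
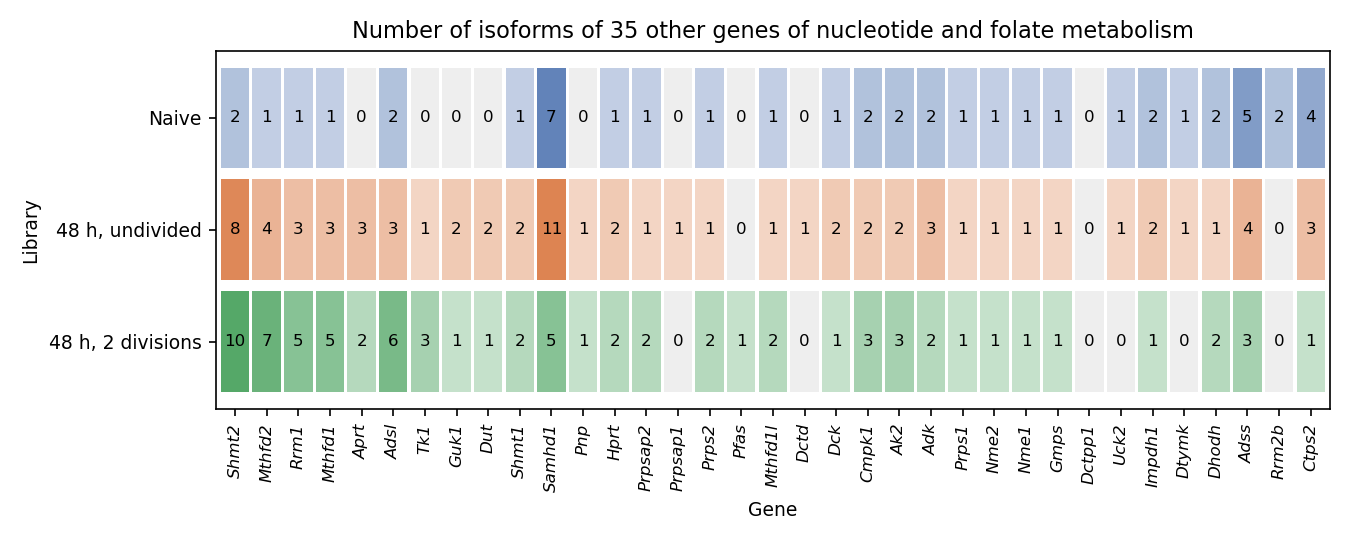
Number of isoforms (printed in each cell, deeper color for more) of 35 of these genes (x axis) in the 3 libraries (y axis), ordered by the gain in the activated libraries. Shmt2 stands at 2, 8 and 10 and Rrm2b at 2, 0 and 0.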

How the data were processed

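The authors derived circular consensus reads (ccs), trimmed primers (lima), required and cut off a poly(A) tail, then clustered (isoseq3), aligned (pbmm2), collapsed and annotated (SQANTI3) the transcripts. The submitters' processing notes name mm10, GRCm38, minimap2 and Subread. The deposited values are exon positions of transcript models, without counts. Here each model was assigned to the GENCODE M21 gene on its strand with the largest number of shared splice sites and, where there were none, the largest exonic overlap. The study names a later GENCODE release, so ends called unannotated may be annotated there. Ends within 24 nt of the next were merged, 12 hexamers (the main poly(A) signal, its common variant and 10 rarer ones) were searched in 50 nt on the transcribed strand, and frames were read from the principal start codon in the GRCm38 sequence. The code was tested on simulated families. Members and gene lists were chosen with earlier results of these data known. All 10 members are named, with those genes of the wider list that were seen in some libraries and not in others, except 1 that is not reported here, and with Rrm1 and Impdh1. Shmt2, Mthfd2, Mthfd1l and Shmt1 were picked after their numbers were seen. Python 3.11.15, numpy 2.4.6, scipy 1.17.1 and matplotlib 3.10.9 were used.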

Additional observations from a re-analysis of the deposited data

How the results depend on the processing

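Of 108 values recomputed under 12 other settings, 96 stayed within 1.5 times the value reported. With at least 2 isoforms asked of a gene, 3 of the 10 members were seen in naive cells, and 11, 19 and 19 of the 36 other genes in naive, undivided and 2-division cells. Without A-rich ends, 1 early isoform was left in undivided and 2 in 2-division cells. Against the most upstream annotated stop codon, the naive library had 0 early isoforms. With ends merged within 10 nt, 2 naive families had several ends. With a difference of over 50 nt, 1 family was longer in 2-division than in undivided cells. With the longest terminal exon, the shorter families were 0 for undivided against naive cells, 1 for 2-division against naive cells and 1 for 2-division against undivided cells. The setting with isoforms that begin at or before the start codon was chosen after seeing the data, and it moved none of its 21 values past 1.5 times. Member isoforms still fell in it from 32 to 28 in undivided and from 39 to 30 in 2-division cells. The counts of members with more isoforms than in naive cells were not among the 108 values. Some of those gains rested on isoforms that began inside the gene or ended early, as given above. No paired analysis was possible because each condition has 1 library, and for the same reason none could be left out. Isoforms stand in for depth, which limits what an absent isoform says.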
